A study of Homo sapiens with 6 samples.

Results

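The 7SK ribonucleoprotein, the elongation factor P-TEFb and the other kinases of transcription elongation were followed in RNA that had been exposed to the endoribonuclease IRE1. The 10 genes described are the noncoding RNA RN7SK, its binding proteins LARP7, MEPCE and HEXIM1, the P-TEFb subunits CDK9, CCNT1 and CCNT2, and the kinases CDK12 and CDK13 with their cyclin CCNK, of 57905 gene identifiers in the count files. All 10 passed the filter on low counts, with 14398 genes tested. The members were named with results of these data in view: RN7SK was chosen by its gene-level change in this comparison, and CDK12 and CCNT1 were selected on the study's exon list from the same libraries. The values of these 3 genes are therefore given as a description, with no test, and the other 7 are set against all genes tested.

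Total RNA came from H929 (NCI-H929), a human multiple myeloma cell line. In each reaction, 5 µg of RNA was kept in cleavage buffer for 1 h at 37 °C, in the IRE1-treated samples with 2 µg of recombinant human IRE1 (amino acids 467 to 977) and in the controls without the protein. After heating at 95 °C for 5 min, poly(A)-containing RNA was purified and sequenced, which gave 3 IRE1-treated and 3 control libraries, described as biological replicates. The enzyme acted on purified RNA in a tube, so the values describe RNA fragments recovered from a reaction and not expression in treated cells, and all of them come from 1 cell line.

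In cells, 7SK RNA is a short RNA polymerase III transcript without a poly(A) tail. Together with HEXIM1 it holds P-TEFb, the kinase CDK9 with cyclin T1 or T2, in an inactive form. MEPCE caps the RNA at its 5′ end and LARP7 covers its 3′ end, and both keep it stable. Released P-TEFb phosphorylates the pausing factors and the C-terminal domain (CTD) of RNA polymerase II, and CDK12 and CDK13, each with cyclin K, phosphorylate the CTD during elongation. CDK12 is known for its role in the full-length transcription of long genes of the DNA damage response.

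Counts on genes ran from 19615715 to 25678499 per library. Scaling by TMM used factors of 1.02 to 1.03 for the controls and 0.947 to 0.996 for the IRE1-treated libraries. All 8 plasma cell markers examined passed the filter on low counts, with a summed count of 211213 to 285502 per library. Summed counts per library were 891 to 1066 for 3 T cell markers, nearly all from CD3E, 120 to 148 for 4 epithelial and fibroblast markers, mostly from KRT8, 21 to 50 for 4 myeloid markers and 0 to 4 for 4 erythroid markers. Gene counts from bulk RNA cannot tell fewer molecules from shorter ones, nor fewer cells of a type from less RNA per cell.

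RN7SK (ENSG00000202198) lies on chromosome 6, positions 52860418 to 52860748 of the plus strand in GRCh37, and the annotation gives it as 1 noncoding RNA of 331 bases with a GC content of 58.0%. The annotation also holds another RN7SK entry, ENSG00000283293, which shares 328 exon bases on the same strand and is not in the count files. The ends of RN7SK are shown because the member proteins MEPCE, HEXIM1 and LARP7 act there. The 5′ part, chr6:52860418-52860525, belong to the 5′ part to which HEXIM1 binds, and capitals mark GATC (GAUC in the RNA), which occurs 3 times in the whole RNA. In the 3′ part, chr6:52860689-52860748, capitals mark the terminal run of T (U in the RNA), the end that LARP7 covers.
RN7SK 5′ part: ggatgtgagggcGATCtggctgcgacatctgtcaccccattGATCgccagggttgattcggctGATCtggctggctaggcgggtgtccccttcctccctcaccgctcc
RN7SK 3′ part: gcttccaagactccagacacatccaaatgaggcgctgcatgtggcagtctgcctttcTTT
The longest run of A in the 331 bases was 3.

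RN7SK was detected in every library. Its raw counts were 90, 77 and 79 in the controls and 183, 109 and 148 in the IRE1-treated samples. After scaling each library by its size and TMM factor to a common mean size, these were normalized counts of 76.1, 74.3 and 81.3 against 219.6, 115.2 and 143.7. The groups did not overlap, and the IRE1-treated libraries differed more among themselves than the controls did. The mean went from 77.2 ± 3.66 to 159.5 ± 53.9 (SD, n = 3 each), a log2 fold change of 1.03 with a standard error of 0.195. This was the contrast that chose the gene: 26 of the 14398 genes tested had a higher log2 fold change, and 2 of those averaged 100 or more normalized counts. IRE1-treated replicate 1 was the highest library, and without it the log2 fold change was 0.75.

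Few counts were assigned to most of the other short noncoding RNAs examined in these poly(A)-purified libraries. Of 24 listed short noncoding RNAs without a poly(A) tail (Y RNAs, vault RNAs, spliceosomal RNAs and others), 19 were matched to an identifier, 14 of these had 0 counts in every library and 1 passed the filter. That was RN7SL2, an RNA of the signal recognition particle. It had 56, 125 and 46 counts in the controls and 69, 69 and 299 in the IRE1-treated samples. The groups overlapped, the log2 fold change was 1.09 with a standard error of 0.437, and the adjusted p was 0.0843 (quasi-likelihood test of edgeR, Benjamini-Hochberg adjusted). The high mean of RN7SL2 rested on IRE1-treated replicate 3, without which the log2 fold change was 0.13, whereas RN7SK was highest in replicate 1. The 291 annotated 7SK pseudogenes together had 5 to 12 counts per library, so few counts were assigned to these copies. How many reads of RN7SK, or of the listed RNAs that have near-identical copies or lie within other genes, went uncounted for lack of a unique assignment was not tested, and a count of 0 does not show that an RNA was absent. RN7SL1, RMRP, RPPH1, RNU11 and RNU12 were listed but not matched, so their counts were not examined.

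**Figure D1:**
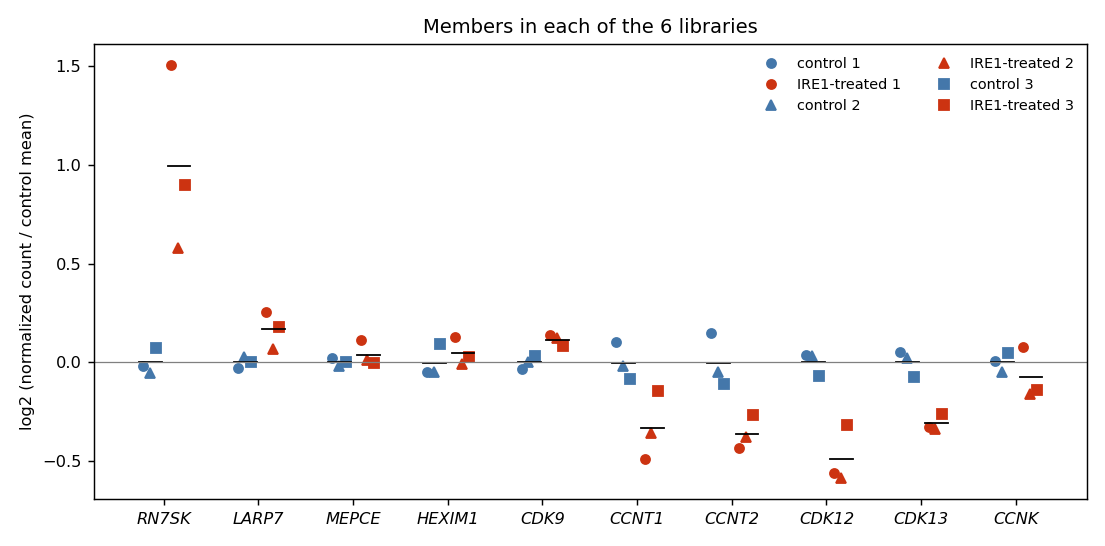
Normalized count of each of the 10 members in each library, as log2 of its ratio to the mean of the 3 controls (vertical axis). Blue symbols are controls, red symbols IRE1-treated samples, the symbol's shape is the replicate number (not used here to pair samples) and black bars are means over 3 libraries. RN7SK is high in all IRE1-treated libraries, CCNT1, CCNT2, CDK12 and CDK13 are low in all of them, and the groups overlap for MEPCE, HEXIM1 and CCNK.

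Over all genes tested, 12.4% were lower and 10.3% higher in the IRE1-treated samples at an adjusted p under 0.05 (1781 and 1489 genes, quasi-likelihood test of edgeR, Benjamini-Hochberg adjusted). With library size in place of TMM, 2594 genes were lower and 684 higher. Of the 7 members not chosen by this comparison, 2 were lower (CCNT2 and CDK13), 0 were higher and 5 did not pass. At an unadjusted p under 0.05 the counts were 2 lower and 2 higher, and DESeq2 also called 2 lower and 0 higher. Their median log2 fold change was 0.04, and that of all genes tested was 0.0045. The 2 that passed are a cyclin of P-TEFb and a CTD kinase. None of the 3 proteins that bind 7SK RNA passed, and neither did CDK9 or CCNK.

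LARP7 (ENSG00000174720, chromosome 4, 113558233 to 113578852) encodes the protein that binds the 3′ end of 7SK RNA. Its normalized counts were 679, 706 and 693 in the controls and 827, 725 and 783 in the IRE1-treated samples. The IRE1-treated libraries were all above the controls, by a log2 fold change of 0.17 (95% interval 0.03 to 0.31), but the adjusted p was 0.0809 (quasi-likelihood test of edgeR, Benjamini-Hochberg adjusted). It did not pass with any library left out.

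MEPCE (ENSG00000146834, chromosome 7, 100025945 to 100031749) encodes the methyltransferase that caps 7SK RNA. It had 1847, 1796 and 1823 normalized counts in the controls and 1968, 1837 and 1814 in the IRE1-treated samples. The groups overlapped, and the difference of 0.04 on the log2 scale had a 95% interval of -0.07 to 0.15 (adjusted p = 0.639, edgeR). Its sign turned with library size in place of TMM, to -0.04.

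HEXIM1 (ENSG00000186834, chromosome 17, 43225842 to 43229466), the inhibitor of P-TEFb, is a gene of 1 exon. Its normalized counts were 843, 841 and 930 in the controls and 953, 866 and 888 in the IRE1-treated samples. The groups overlapped here too, with a log2 fold change of 0.05, a 95% interval of -0.09 to 0.19 and an adjusted p of 0.632 by edgeR. The interval leaves room for a change of up to 0.19 in log2 units, and the sign turned, to -0.03, with library size in place of TMM.

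CDK9 (ENSG00000136807, chromosome 9, 130547958 to 130553071), the kinase of P-TEFb, had 1735, 1780 and 1813 normalized counts in the controls and 1953, 1931 and 1877 in the IRE1-treated samples. The libraries of the 2 groups did not overlap. The log2 fold change was 0.11 (95% interval 0.01 to 0.22) and did not pass, with an adjusted p of 0.111 by edgeR. It was 0.04 when scaled by library size alone, and also 0.04 with a trend for transcript length and GC content removed. LARP7 and CDK9 were the members among these 7 whose IRE1-treated libraries all lay above the controls, a pattern seen in 19.1% of all genes tested. CCNT2 and CDK13 were those whose IRE1-treated libraries all lay below, seen in 20.0%.

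CCNT1 and CCNT2 encode the alternative cyclins of CDK9. CCNT1 (ENSG00000129315, chromosome 12, 49082241 to 49110781, minus strand) had 1071, 983 and 939 normalized counts in the controls and 710, 778 and 901 in the IRE1-treated samples. All IRE1-treated values were below the controls, although the gap between 939 and 901 was small, and the log2 fold change was -0.32 with a standard error of 0.0801. CCNT2 (ENSG00000082258, chromosome 2, 135675805 to 135716912) had 390, 340 and 326 normalized counts against 260, 271 and 292. Its mean fell from 352 ± 33.4 to 274 ± 16.3 (SD, n = 3 each), a log2 fold change of -0.36 with a standard error of 0.0953 and an adjusted p of 0.0132 (quasi-likelihood test of edgeR, Benjamini-Hochberg adjusted). The call was lost without control replicate 1 (adjusted p = 0.101 by edgeR) and without IRE1-treated replicate 2 (0.0556).

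The cyclin and the kinase of P-TEFb were also compared within each library. The log2 ratio of CCNT2 to CDK9 normalized counts was -2.15, -2.39 and -2.47 in the controls and -2.91, -2.84 and -2.68 in the IRE1-treated samples. Every IRE1-treated ratio was lower, by 0.47 on average in log2 units. The two-sided exact permutation test gave p = 0.1, the smallest value that 3 against 3 libraries allow (0.333 after Benjamini-Hochberg adjustment). The ratio of CDK9 to HEXIM1, the kinase to its inhibitor, differed by 0.06 (two-sided exact permutation p = 0.5, adjusted 0.625). The ratio of LARP7 to HEXIM1 differed by 0.12 (two-sided exact permutation p = 0.2, adjusted 0.333) and that of MEPCE to HEXIM1 by -0.01 (two-sided exact permutation p = 0.9, adjusted 0.9). The adjustment is over the 5 ratios tested.

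CDK12 (ENSG00000167258, chromosome 17, 37617739 to 37723812) had the lowest fold change of the 10 members. Its normalized counts were 1329, 1321 and 1232 in the controls and 878, 861 and 1037 in the IRE1-treated samples. The groups did not overlap, and the mean went from 1294 ± 53.9 to 926 ± 97.1 (SD, n = 3 each), a log2 fold change of -0.48 with a standard error of 0.0702. It was between -0.57 and -0.43 with any 1 library left out.

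CDK13 (ENSG00000065883, chromosome 7, 39989720 to 40139179), the paralog of CDK12, had 968, 949 and 886 normalized counts in the controls and 744, 739 and 780 in the IRE1-treated samples. The mean fell from 935 ± 42.9 to 754 ± 22.5 (SD, n = 3 each), a log2 fold change of -0.31 with a standard error of 0.0618 and an adjusted p of 0.00255 (quasi-likelihood test of edgeR, Benjamini-Hochberg adjusted). CDK13 passed with each of the 6 libraries left out, but not once the trend with transcript length and GC content was removed (-0.06, adjusted p = 0.524 by edgeR). Within libraries, the log2 ratio of CDK12 to CDK13 went from 0.47 ± 0.011 to 0.29 ± 0.105 (SD, n = 3 each), given without a test because CDK12 was selected on this contrast.

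CCNK (ENSG00000090061, chromosome 14, 99947506 to 100001381), the cyclin of both kinases, had 2244, 2161 and 2309 normalized counts in the controls and 2362, 2005 and 2031 in the IRE1-treated samples. IRE1-treated replicate 1 was the highest of all 6 libraries and the other two were the lowest. The log2 fold change was -0.07 (95% interval -0.20 to 0.06, adjusted p = 0.451 by quasi-likelihood test of edgeR, Benjamini-Hochberg adjusted). Without IRE1-treated replicate 1 it was -0.15, with an adjusted p of 0.0293. The ratio of CCNK to CDK13 was higher by 0.24 in log2 units in the IRE1-treated samples (two-sided exact permutation p = 0.2, adjusted 0.333 over the 5 ratios).

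Several members share exon bases with genes on the opposite strand, and the strand setting of the counting is not given in the sources used here. CCNK shares 4893 bases with CCDC85C, LARP7 1318 with MIR302CHG, HEXIM1 520 with HEXIM2-AS1, MEPCE 203 with ZCWPW1 and CCNT2 150 with CCNT2-AS1. CDK9 shares 91 bases with the microRNA gene MIR3960 on its own strand.

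Levels were compared between genes only per length, as TMM-scaled CPM per kilobase of exon. In the controls CDK9 was highest, at 26.5 ± 0.580 (SD, n = 3), followed by MEPCE at 24.2 ± 0.340. CCNK (12.2 ± 0.406), HEXIM1 (10.8 ± 0.625) and RN7SK (10.5 ± 0.496) came next, and HEXIM1 and RN7SK did not differ beyond their spread. The other levels were 6.07 for CCNT1, 4.48 for CDK12, 3.84 for LARP7, 1.74 for CCNT2 and 1.69 for CDK13, and the last pair overlapped. CCNT1 therefore stood above CCNT2, and CDK12 above CDK13, in each library group.

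In the IRE1-treated samples the level of RN7SK per length was 21.6 ± 7.31 (SD, n = 3), the third of the 10, with a range of 15.6 to 29.8 that took in CDK9 (28.7 ± 0.582) and MEPCE (24.9 ± 1.10). These levels describe recovered poly(A)-purified RNA, and for a transcript without a poly(A) tail they are no measure of its abundance in the cell. The order also depends on the length used. With the longest transcript in place of all exon bases, the control level of LARP7 was 9.70 and that of CDK13 4.40.

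**Figure D2:**
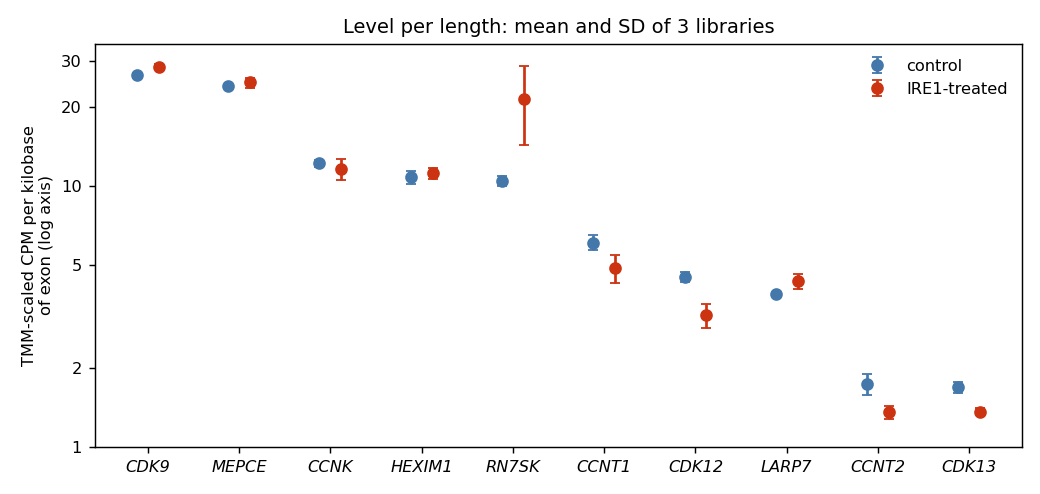
Level per length of the 10 members, as TMM-scaled CPM per kilobase of exon (log axis), in the order of the control means. Points are means and bars the SD of 3 control (blue) or 3 IRE1-treated (red) libraries. RN7SK moved from 10.5 to 21.6 and has the widest bar, and CDK9 and MEPCE were the highest in the controls.

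Over coding genes in general, the fold changes went with transcript length. Among 12225 coding genes tested, the 3058 with the shortest transcripts (up to 2506 bases) had a median log2 fold change of 0.15, with 0.229% called lower and 28.7% higher. The 3056 with the longest (5756 bases or more) had a median of -0.20, with 36.8% called lower and 2.52% higher. CCNT1 (6915 bases), CCNT2 (6920), CDK12 (8287) and CDK13 (9525) are all as long as the latter, and CDK9 (2483) is as short as the former. Of these, CDK12 and CCNT1 were selected on the study's exon list. Whether fold change goes with length among the members was not tested. For CCNK the longest transcript, of 5627 bases, is a retained-intron form without a coding sequence.

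When the trend with transcript length and GC content was removed from each library, the log2 fold change of CCNT2 was -0.16 (adjusted p = 0.255 by edgeR) and that of CDK13 -0.06 (adjusted p = 0.524 by edgeR), so that 0 of the 7 members passed. CDK12 was then at -0.27, CCNT1 at -0.13 and RN7SK at 0.85. The part of transcript length in these differences was not tested.

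**Figure D3:**
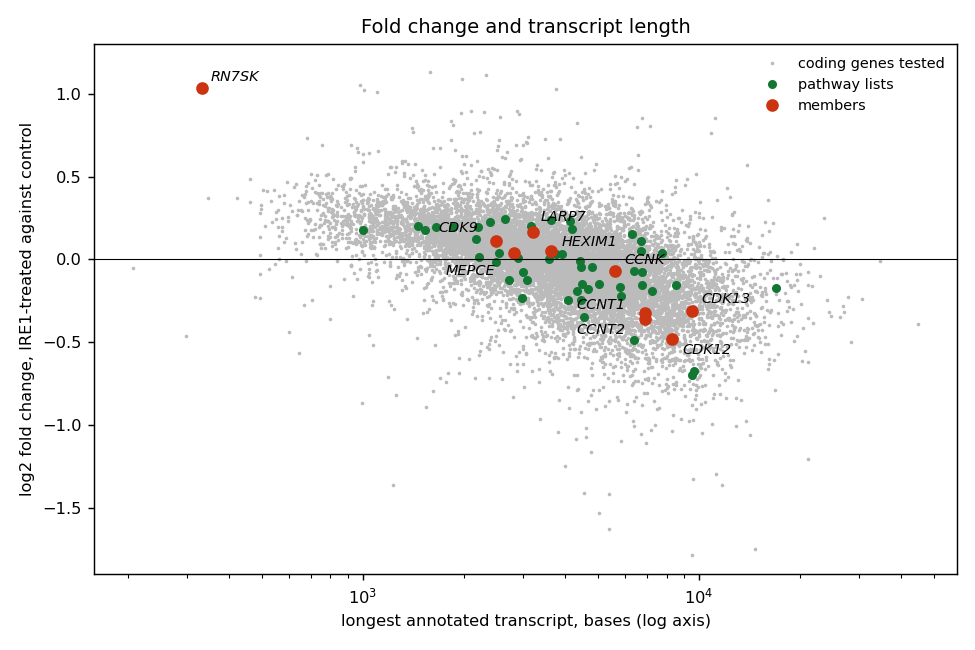
Log2 fold change of IRE1-treated against control samples (vertical axis) against the longest annotated transcript in bases (log axis). Grey points are the 12225 coding genes tested, green points the genes of 4 pathway lists and red points the 10 members. The 4 members above 5756 bases lie below 0, and RN7SK, at 331 bases, lies at 1.03. Of these, RN7SK, CDK12 and CCNT1 were chosen by results from these libraries.

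IRE1 is known to cut RNA in the loop of short hairpins at a consensus around CUGCAG. Each member's longest transcript was searched for CNGCNN, in which the first N is A, C or U, the next A or C and the last A or G, on the transcript strand. Predicted hairpins had to leave the G unpaired in a loop of 5 to 11 bases on a stem of at least 3 pairs. RN7SK held 0 matches of the consensus and CDK9 held 11, with 0 in such a hairpin. The other 8 members had 1 or more hairpin matches, as did 86.4% of the coding genes tested. A match of letters and a predicted fold is a description and no evidence of cleavage.

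CDK13 had 10 hairpin matches, CDK12 and MEPCE 4 each, CCNT1 and HEXIM1 2 each, and LARP7, CCNT2 and CCNK 1 each. Per kilobase, MEPCE had 1.42, CDK13 1.05 and CCNT2 0.145, against a median of 0.635 over coding genes. The log2 fold changes of these 3 members were 0.04 for MEPCE, -0.31 for CDK13 and -0.36 for CCNT2. HEXIM1 had 0.552 per kilobase and a log2 fold change of 0.05, and CDK12 had 0.483 and -0.48. LARP7 had 0.312 and 0.17, CCNT1 0.289 and -0.32, and CCNK 0.178 and -0.07. CDK9 and RN7SK, with 0 hairpin matches, were at 0.11 and 1.03. Whether the matches per kilobase go with the fold change was not tested. The exact letters CUGCAG in a hairpin occurred in 1 member, HEXIM1, and in 38.6% of the coding genes. CUGCAG anywhere occurred in 8 members, 3 times in CDK12, and in 88.0% of the coding genes. Only 15 bases on either side were folded here. The study folded transcript sequences with Mfold and reported a stem-loop with the consensus in CDK12 mRNA. Its qRT-PCR across that site was lower after IRE1. The search here therefore does not show that CDK12 lacks such a stem-loop. The hairpin matches of CDK12 and the exact CUGCAG hairpin match of HEXIM1 are shown. CDK12 had the lowest fold change and HEXIM1 the only exact CUGCAG that this search placed in a hairpin. Capitals mark the consensus, with 12 bases on either side, as RNA. The CDK12 windows lie at chr17:37618405-37618434 and chr17:37619308-37619337 in the coding part of exon 1, at chr17:37650825-37650854 in the coding part of exon 5 and at chr17:37689802-37689831 in the 3′ UTR in exon 14 of 14. That of HEXIM1 lies in its 3′ UTR at chr17:43229173-43229202 (all GRCh37, plus strand).
CDK12 exon 1, first window: cggcagcucuaaCAGCAGagagcgucaccg
CDK12 exon 1, next window: ucgaaggcggucCAGCAGcccuuuccugag
CDK12 exon 5: gcuucccaaucaCAGCCAuucgugaaauca
CDK12 exon 14: uauuuugguuauCAGCAGucaucaauaaug
HEXIM1: gguucagaaccuCUGCAGggaagggggaag

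The genes that work with the members were taken from 4 lists of known roles, which were chosen with earlier results of these data known. Of their 50 genes, 49 were tested: 14 (28.6%) were lower, 10 (20.4%) higher and 25 did not pass (quasi-likelihood test of edgeR, Benjamini-Hochberg adjusted), beside 12.4% lower and 10.3% higher over all genes tested. With library size in place of TMM 17 were lower and 1 higher, and with the length and GC trend removed 6 were lower and 10 higher. Those 10 were not all the same genes. With the trend removed, 4 of the other 7SK-binding proteins and 2 of the pausing and elongation factors were higher, against 1 and 6 without the removal. The median log2 fold change, with TMM and no trend removed, was -0.02. The 14 lower genes had a median longest transcript of 5428 bases and the 10 higher ones of 2902 bases, and the part of length in these calls was not tested.

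The proteins that recruit P-TEFb to genes were the list with most lower calls. Of 9 tested, 7 were lower and 0 higher (1 higher at an unadjusted p under 0.05 by edgeR, and 0 by DESeq2 after adjustment), with a median log2 fold change of -0.24 and a median transcript of 5826 bases. The share called lower was 12.4% over all genes tested, 36.8% over coding genes of 5756 bases or more and 15.8% over those of 3923 to 5754 bases. The recruiters tested ran from 998 to 9625 bases. ELL (4074 bases) and MLLT1 (4532), both called lower, are among those between 3923 and 5754. AFF4, a scaffold of the super elongation complex, had 1173, 1179 and 1042 normalized counts in the controls and 574, 682 and 827 in the IRE1-treated samples. AFF4 fell by 0.70 on the log2 scale (adjusted p = 2.43e-04 by edgeR), with every IRE1-treated library below the controls. AFF1, its paralog, went from 3070 ± 195 to 1920 ± 199 normalized counts (SD, n = 3 each), a log2 fold change of -0.68 (adjusted p = 3.51e-05 by edgeR). The smallest change that passed was that of the elongation factor ELL2, at -0.17 (adjusted p = 0.0309 by edgeR). With the length and GC trend removed, 4 of the 9 were lower and 1 higher, and 4 were lower without control replicate 1, control replicate 3 or IRE1-treated replicate 2. The calls of AFF1, AFF4, ELL and MLLT1 held under all 15 alternatives.

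Of 7 other proteins that bind 7SK RNA, HNRNPA1, which takes part in remodelling of the complex, was higher at 0.23 (adjusted p = 0.00293 by edgeR), DHX9, an RNA helicase, was lower at -0.15 (adjusted p = 0.0396 by edgeR), and 5 did not pass. With 1 of 7 in each direction (14.3%), the shares were near those of all genes tested (12.4% lower and 10.3% higher). This depended on the processing. With the length and GC trend removed, 0 of the 7 were lower and 4 higher, beside 733 lower and 1275 higher over all genes tested. The call of HNRNPA1 held under all 15 alternatives. That of DHX9 was lost with the length and GC trend removed and without control replicate 1, 2 or 3 or IRE1-treated replicate 2.

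Among 19 pausing and elongation factors, 4 (21.1%) were lower and 6 (31.6%) higher, with a median of 0.001, beside 12.4% and 10.3% over all genes tested. TCEA1, the elongation factor TFIIS, was lowest at -0.23 (adjusted p = 0.0145 by edgeR), and CDC73, a subunit of the PAF1 complex, followed at -0.22 (adjusted p = 0.0393 by edgeR). SKIC8, another PAF1 complex subunit, was highest at 0.24 (adjusted p = 0.0108 by edgeR), and IWS1 was at 0.20 (adjusted p = 0.0385 by edgeR). Subunits of 1 complex thus had calls in both directions. With library size in place of TMM, 7 were lower and 0 higher, and with the length and GC trend removed 1 was lower and 2 were higher. None of the 4 lower calls was kept without control replicate 1, 2 or 3 or IRE1-treated replicate 2, and none of the 6 higher calls without control replicate 2.

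The other CTD kinases, their cyclins and the CTD phosphatases gave 2 lower (14.3%) and 3 higher (21.4%) of 14, beside 12.4% and 10.3% over all genes tested. CDK19, a kinase of the Mediator complex, had 275, 272 and 256 normalized counts in the controls and 202, 191 and 183 in the IRE1-treated samples, a log2 fold change of -0.48 (adjusted p = 0.00252 by edgeR) with no overlap. POLR2A, the largest subunit of RNA polymerase II, which carries the CTD, was lower at -0.15 (adjusted p = 0.0420 by edgeR). MNAT1 and CCNH, the partners of the initiation kinase CDK7, were higher at 0.24 and 0.23 (adjusted p = 0.00823 and 0.00701 by edgeR). With library size in place of TMM, 0 genes of this list were higher. The call of CDK19 held with each library left out, that of CCNH was lost without control replicate 2, and that of POLR2A was lost with the length and GC trend removed and without any 1 of the libraries other than IRE1-treated replicate 1.

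**Figure D4:**
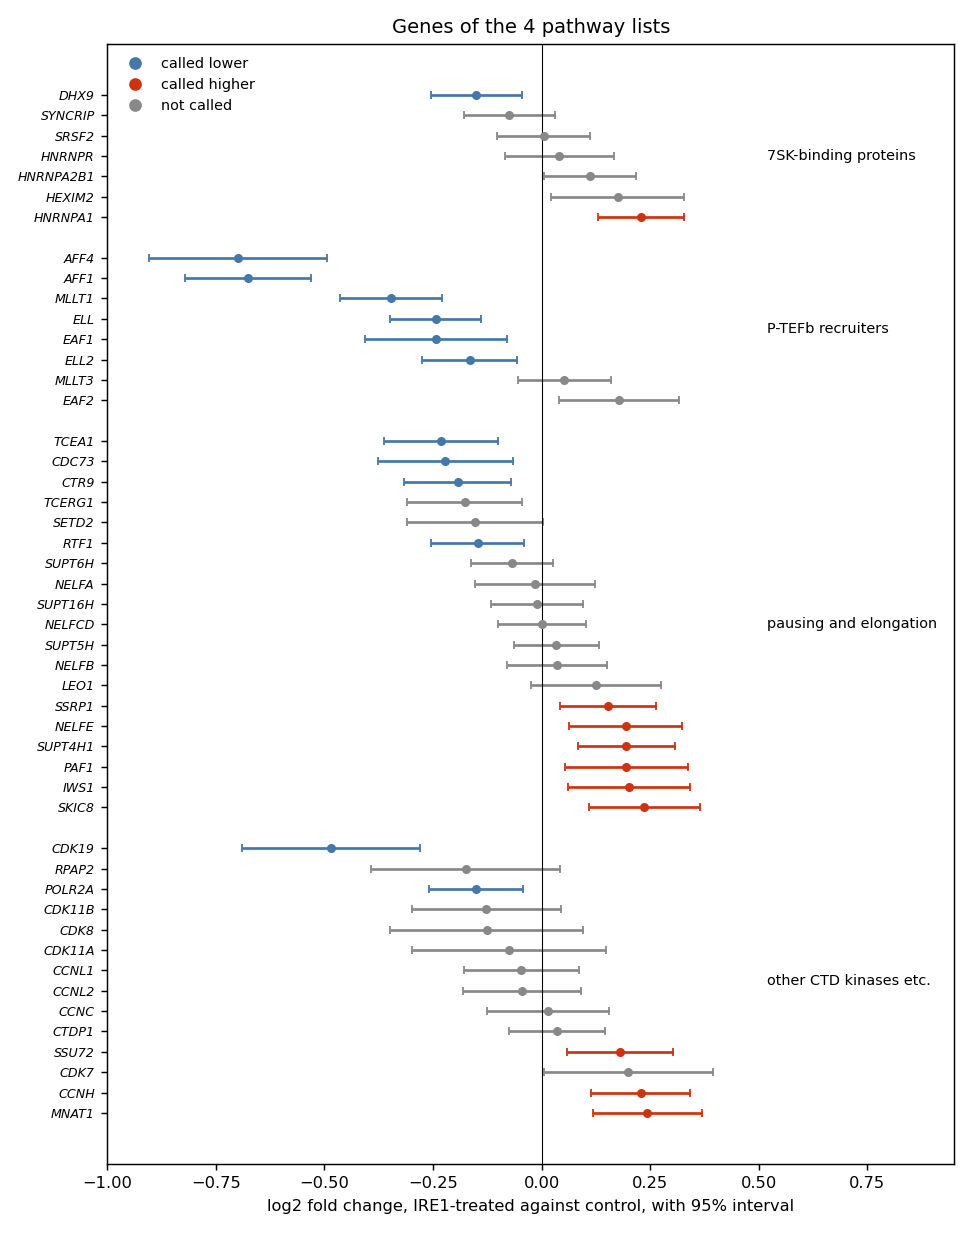
Log2 fold change of IRE1-treated against control samples with its 95% interval for 48 of the 49 tested genes of the 4 pathway lists, ordered within each list. Blue is called lower, red called higher and grey not called (adjusted p under 0.05, edgeR). Of the P-TEFb recruiters drawn, 6 of 8 are blue and none is red, and the other lists hold both colours.

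The genes that correlated most with RN7SK or CDK12 over the 6 libraries are given as a description. They came from 10230 candidates that averaged 100 or more normalized counts. For RN7SK they were IFTAP, RHOA, TRAF3IP3, YIPF1 and ANXA6, with Pearson correlations of log2 CPM of 0.993 to 0.997. For CDK12 they were ANO6, SMCR8, UBE4A, BMPR2 and ATP11A, at 0.998 to 1.00. The 6 points share the split into treated and control libraries, so any gene that moved with the treatment correlates with these.

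**Figure D5:**
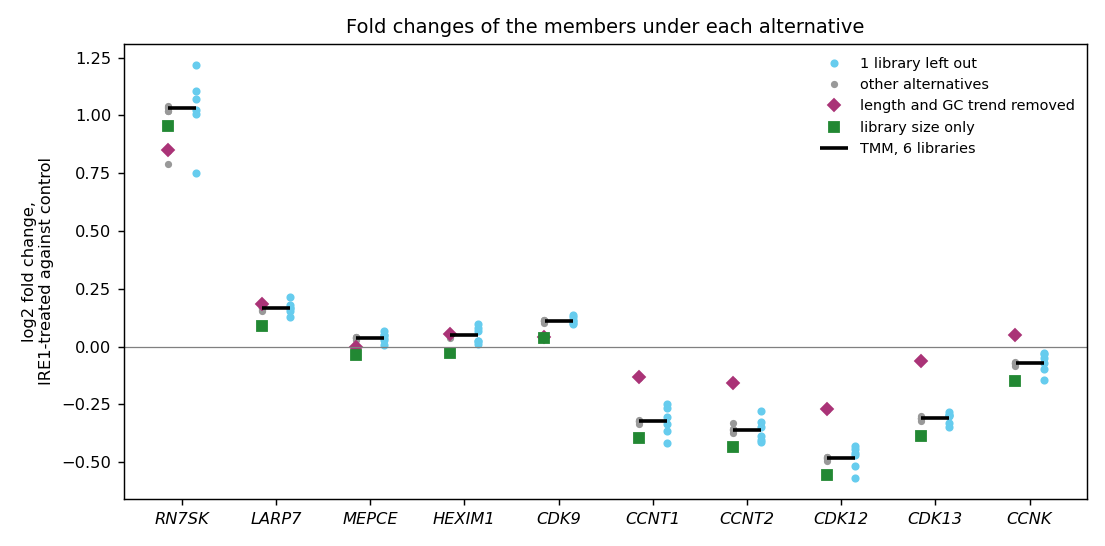
Log2 fold change of each member (vertical axis) under the alternatives of processing. The black bar is the value with TMM over 6 libraries, light blue points leave out 1 library, the diamond has the length and GC trend removed, the square uses library size only and grey points are the other alternatives. RN7SK stays above 0.75, CDK12 runs from -0.57 to -0.27, and MEPCE, HEXIM1 and CCNK have values on both sides of 0.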

How the data were processed

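Total RNA of NCI-H929 cells, incubated with or without IRE1, was sequenced after poly(A) purification (3 libraries per group, 1 lane each, so that lane and library cannot be told apart). The authors trimmed reads with cutadapt 1.12, aligned them to hg19 with STAR 2.5.3a, counted them per Ensembl gene with HTSeq 0.6.1p1 and deposited raw counts. They also deposited a table of CPM values normalized by them, used here only in 1 alternative (their processing notes name edgeR 3.24.3). Strand setting and overlap mode are not given in the sources used here. The 5 HTSeq summary lines (21.4 to 23.2% of the counts) were left out. All 6 libraries entered 1 fit with edgeR 4.0.16 (R 4.3.3): its filter on low counts, TMM, the quasi-likelihood test and Benjamini-Hochberg adjustment over all genes, threshold 0.05, without covariates. P-values measure the spread between these samples, and intervals at the 95% level come from this fit.

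The members and lists were chosen with earlier results of these data known. Every member was named, and from each list the genes past the threshold with the 2 lowest and 2 highest fold changes, except 1 gene that is not reported here. For RN7SK and CDK12, the 5 most correlated genes were named. The markers and overlapping genes named were chosen after their values were seen.

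The alternatives were DESeq2 1.42.0, scaling by library size alone or by the upper quartile, no filter, at least 10 counts in every library, limma 3.58.1 on log2 of CPM (pseudocount 1), a block for the replicate number, removal of a loess trend with length and GC content (span 0.5), both together, and leaving out each library. Gene names and positions came from GENCODE on GRCh37, which names 55538 of 57905 identifiers. Hairpins were folded with ViennaRNA 2.7.2, with 15 bases on either side. The fit and the hairpin search were tested on simulated data. The study's exon test was not repeated.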

Additional observations from a re-analysis of the deposited data

How the results depend on the processing

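Each result was recomputed under 15 alternatives. The signs of RN7SK, LARP7, CDK9, CCNT1, CCNT2, CDK12 and CDK13 held in all of them, and no alternative called any of the 7 members outside RN7SK, CDK12 and CCNT1 higher. With library size only, MEPCE was at -0.037 and HEXIM1 at -0.026 on the log2 scale, 684 genes over all were higher, and 1 gene of the 4 pathway lists was higher. With the length and GC trend removed, 733 genes were lower, 0 of the 7 members, 6 genes of the pathway lists and 4 P-TEFb recruiters were lower, 1 recruiter was higher, and the log2 fold changes of MEPCE and CCNK turned to -0.0036 and 0.049. Without a filter, 1 of the other short noncoding RNAs, RN7SL2, was called higher.

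No pairing by replicate number was seen: deviations from the group means of libraries with the same number had correlations of -0.13, -0.11 and -0.33. With 3 libraries per group, these values cannot show whether the samples were paired. With the number as a replicate block, 9 genes of the pathway lists were lower, without DHX9, ELL2, CDC73, RTF1 and POLR2A, and 2 of the 7 members stayed lower. With the replicate block and the trend removed, 611 genes were lower, 0 of the 7 members, 5 genes of the pathway lists and 4 recruiters were lower, 1 recruiter was higher, and MEPCE and CCNK were at -0.0029 and 0.047.

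When 1 library at a time was left out, 972 to 2221 genes over all were lower and 638 to 2091 higher. Between 1 and 3 of the 7 members were lower, with 3 without IRE1-treated replicate 1, when CCNK was added. Of the pathway lists 5 to 14 genes were lower and 2 to 10 higher, of the P-TEFb recruiters 4 to 7 were lower and 0 to 1 higher, and of the other short noncoding RNAs 0 to 1 were higher. RN7SK rests on 77 to 183 counts per library, the fewest of the members, and its log2 fold change ran from 0.75 to 1.22. Restricting the hairpin search to CUGCAG left 10% of the members with a match, and loops of exactly 7 bases left 30%, against 80%.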
